A study of Drosophila melanogaster with 20 samples.

Results

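The JAK/STAT pathway was described across wing disc tumors through 8 listed genes: the ligands upd1 and upd2, the receptor gene dome, the kinase gene hop, the transcription factor gene Stat92E, and the inhibitors Socs36E, et and Ptp61F. A gene entered when a probe set of the array carried its symbol alone. This held for 6 of the 8 listed genes, each with 1 probe set, among 13402 named genes in all. hop and Socs36E were skipped under this rule and are not analysed here.

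In Drosophila, secreted Unpaired ligands bind the receptor Domeless, which activates the Janus kinase Hopscotch, and the kinase phosphorylates Stat92E, which then enters the nucleus. Inhibitors limit the signal: Socs36E acts on the receptor complex, Et is a shorter relative of Domeless, and Ptp61F is a tyrosine phosphatase. In the wing disc the pathway is known for roles in growth of the hinge, in regeneration after wounding and in several tumor models. The RefSeq gene table places dome and et next to each other on the X chromosome, with 0 genes between them, and upd1 and upd2 on the same chromosome with 5 genes between them. Of the 6 measured genes, 4 are X-linked.

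Total RNA of about 20 pairs of wing imaginal discs per sample was hybridised to Affymetrix arrays, and the values are log2 expression levels made with RMA. The discs carried EGFR together with psqRNAi, a knockdown construct against the BTB-domain gene psq, or EGFR alone. The groups with EGFR and psqRNAi were EP_Ctrl (discs at 12 hr, before tumors formed), EP_EHT (hyperplastic tumors, day 4) and EP_LNT (neoplastic tumors, day 11). The groups with EGFR alone were E_EHT (hyperplastic tumors, day 4) and E_Ctrl (discs at 12 hr). Every group thus carried EGFR. Discs without it are not analysed here, and a comparison over time joins the age of the disc with the growth of the tumor. The driver of the transgenes, the event from which the times were counted and the sex of the larvae are not given in the sources used here. Each group had 4 arrays, labelled as biological replicates of pooled discs, except E_EHT, which had 3 because the submitters set replicate 1 aside for technical problems.

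The array medians over the named genes lay between 7.29 and 7.39. Of the 10 wing disc markers listed, 8 were measured, and their mean level was 8.58 to 9.41 on the EP_LNT arrays and 8.83 to 9.81 on the others. For psq, the targeted gene, the mean was 10.70 ± 0.18 (SD) in EP_EHT and 11.15 ± 0.05 in E_EHT (limma log2 fold change -0.45 ± 0.10, SE, adjusted p = 0.0163), and it was 10.78 ± 0.14 in EP_Ctrl and 10.87 ± 0.05 in E_Ctrl (-0.09 ± 0.09, 0.675). Whether its probe set lies within the stretch matched by the RNAi is unknown here. EP_LNT replicate 4 stood apart. Its level of lncRNA:roX1, a male dosage compensation transcript, was 7.87, against at least 12.05 on the other arrays. The mean of its 11 haemocyte markers was 8.33, against 9.50 to 9.56 on the other EP_LNT arrays. The mean of 7 salivary glue genes ranged widely, from 7.72 to 11.38 in EP_EHT, from 8.45 to 11.60 in EP_Ctrl, from 7.30 to 11.55 in E_EHT and from 8.11 to 11.82 in E_Ctrl, and was 5.83 to 8.33 in EP_LNT. The table holds no detection calls, so whether a level lies above background is unknown.

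The ligand genes were the members that changed in the tumors with EGFR and psqRNAi. Both upd1 and upd2 were higher at day 4 than at 12 hr. At day 11 upd2 was still above its level at 12 hr, while upd1 was lower than at day 4, with a mean of 8.25 at day 11 and of 8.25 at 12 hr. The receptor gene dome, Stat92E, et and Ptp61F did not pass the test in any comparison. In discs bulked for RNA, more cells expressing a gene and more RNA per cell cannot be told apart.

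upd1 encodes Unpaired, the founding ligand of the pathway. With EGFR and psqRNAi its levels were 8.27, 8.26, 8.33 and 8.14 at 12 hr, 8.58, 9.48, 8.98 and 8.65 at day 4, and 8.25, 8.20, 8.48 and 8.06 at day 11 (replicates 1 to 4). All 4 arrays of day 4 lay above all arrays of 12 hr and of day 11. With EGFR alone, upd1 stood at 9.34, 8.57 and 8.54 in E_EHT (replicates 2 to 4), against 8.55, 8.45, 8.23 and 8.25 in E_Ctrl. These groups overlapped, and E_EHT replicate 2 stood well above the other arrays.

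In EP_EHT over EP_Ctrl, upd1 rose 1.59-fold (log2 fold change 0.67 ± 0.19, SE, limma adjusted p = 0.0483, n = 4 and 4). In EP_LNT over EP_EHT it was 1.59-fold lower (-0.67 ± 0.19, adjusted p = 0.0366, n = 4 and 4). In EP_LNT over EP_Ctrl its log2 fold change was -0.0036 ± 0.19, with a 95% interval of -0.40 to 0.39. The calls lay close to the threshold. The rise was lost without EP_EHT replicate 2 (0.48, adjusted p = 0.159) or 3 (0.65, 0.102) and without any 1 of EP_Ctrl replicates 1 to 4 (0.63 to 0.70, adjusted p of 0.085 to 0.12). It was also lost with E_EHT replicate 1 kept (adjusted p = 0.119), with arrays centred on their medians (0.0511) and with only the groups compared (0.119). The fall was lost without EP_EHT replicate 2 (-0.49, adjusted p = 0.0854) or 3 (-0.65, 0.085) and without EP_LNT replicate 1 (-0.67, 0.0755), 2 (-0.66, 0.0906) or 4 (-0.61, 0.0653), and also with E_EHT replicate 1 kept (0.0955) or only the groups compared (0.145).

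upd2 encodes a second ligand, known in flies also as a fat body signal of the fed state. Its levels with EGFR and psqRNAi were 7.06, 7.19, 7.62 and 6.79 at 12 hr, 7.95, 8.45, 7.95 and 7.49 at day 4, and 7.77, 7.77, 8.02 and 8.11 at day 11. The arrays of day 11 lay above all those of 12 hr, while day 4 overlapped with 12 hr through EP_EHT replicate 4 and EP_Ctrl replicate 3. With EGFR alone, upd2 stood at 7.83, 7.70 and 7.38 in E_EHT, against 6.95, 6.90, 7.38 and 6.89 in E_Ctrl. The lowest E_EHT array, replicate 4, lay just above the highest E_Ctrl array, replicate 3, so that the groups did not overlap.

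upd2 rose 1.69-fold in EP_LNT over EP_Ctrl (log2 fold change 0.75 ± 0.19, SE, limma adjusted p = 0.00851, n = 4 and 4). This call held under all 8 alternatives and without each of the 8 arrays, with adjusted p from 0.00266 to 0.0348. In EP_EHT over EP_Ctrl, upd2 rose 1.74-fold (0.80 ± 0.19, adjusted p = 0.0235). That call was lost without EP_EHT replicate 2 (0.63, adjusted p = 0.088) or EP_Ctrl replicate 1 (0.76, 0.0671), 2 (0.81, 0.0517) or 4 (0.67, 0.0791), and with only the groups compared (0.13). In EP_LNT over EP_EHT the log2 fold change was -0.042 ± 0.19, with a 95% interval of -0.45 to 0.36.

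**Figure D1:**
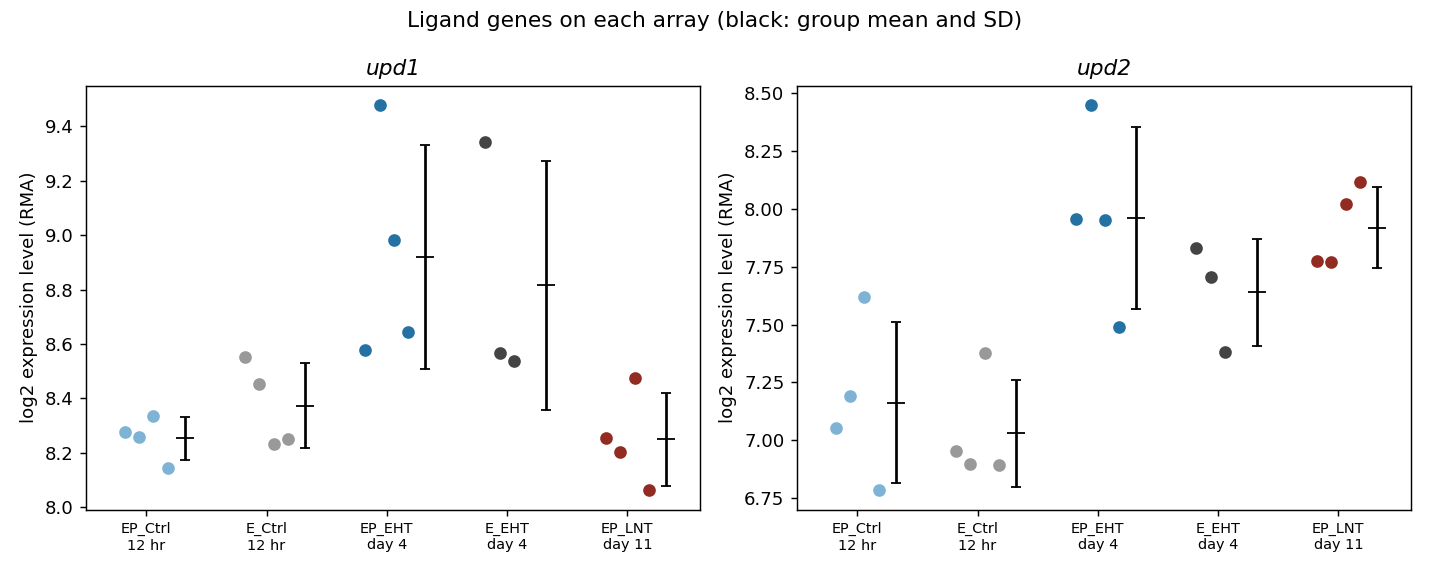
Log2 expression level (RMA, vertical axis) of upd1 and upd2 on each array, by group; points are arrays in replicate order and black bars are the group mean and SD. For upd1, the 4 EP_EHT arrays lie at 8.58 or above and the EP_LNT arrays at 8.48 or below, while for upd2 the EP_LNT arrays lie at 7.77 or above and the EP_Ctrl arrays at 7.62 or below.

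Markers of other cells moved in the same comparisons. In EP_EHT over EP_Ctrl, 2 of 4 measured myoblast markers were higher (2.95% of all genes). Their list means were 8.60 to 8.93 in EP_EHT and 8.25 to 8.31 in EP_Ctrl. EP_EHT replicate 2, the array with the highest upd1 and upd2 of its group, had the lowest wing disc mean, 8.83 against 9.29 to 9.70 on the other 3, and also the lowest myoblast and haemocyte means of the group. In EP_LNT over EP_EHT, where upd1 was lower, 5 of 11 haemocyte and 3 of 4 myoblast markers were higher (4.49% of all genes). In that comparison 2 of 3 fat body markers and 1 of 8 wing disc markers were lower (2.5% of all genes). The part of these markers' cells in the changes of upd1 and upd2 was not tested.

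Haemocyte markers also rose from 12 hr to day 11. Of 11 measured, 7 were higher, 1 was lower and 3 did not pass in EP_LNT over EP_Ctrl. Of all genes, 12.1% were called higher and 10% lower in that comparison. Other lists fell there: 3 of 3 fat body markers, 3 of 7 salivary glue genes, 2 of 2 trachea markers and 2 of 3 muscle markers were lower. In each of these 4 lists 0 were higher. Of 8 wing disc markers, 5 were lower and 2 higher, and of 5 neuron and glia markers 1 was higher. The mean of the haemocyte list was 8.33 to 9.56 in EP_LNT and 7.96 to 8.48 in EP_Ctrl. EP_LNT replicate 4 had the lowest haemocyte mean and the highest wing disc mean of its group, and a low lncRNA:roX1. On that array upd2 stood at 8.11, its highest level of the group. Without that array, upd2 was 0.69 higher in EP_LNT over EP_Ctrl on the log2 scale (limma adjusted p = 0.0224). All 4 measured myoblast markers were higher too, with means of 9.03 to 9.58 in EP_LNT and 8.25 to 8.31 in EP_Ctrl. zfh1 is among them and is also 1 of the STAT-responsive genes counted further on. The part of haemocytes, myoblasts or the cells of the other lists in the change of upd2 was not tested.

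The changes of the ligands were also compared with each other. The log2 fold change of upd1 minus that of upd2 was -0.63 in EP_LNT over EP_EHT and -0.76 in EP_LNT over EP_Ctrl, and in both the arrays of the groups did not overlap in this difference. The two-sided exact permutation test over arrays gave p = 0.0286 for each, the smallest that 4 against 4 arrays allow. Adjusted over the 12 comparisons of gene pairs that were run, p was 0.114. Because no p can be smaller than 0.0286, so few comparisons at that value could not pass after adjustment. The test therefore does not decide whether the changes of the ligands differed. From 12 hr to day 4 the same difference was -0.13 with psqRNAi (exact p = 0.457) and -0.17 without it (exact p = 0.486).

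Ordered by their group means, the levels of upd1 were 8.92 ± 0.41 (SD) in EP_EHT, 8.82 ± 0.46 in E_EHT, 8.37 ± 0.16 in E_Ctrl, 8.25 ± 0.08 in EP_Ctrl and 8.25 ± 0.17 in EP_LNT. No neighbours in that order that were compared differed beyond their spread, with adjusted p of 0.844 for EP_EHT over E_EHT and of 0.197 for E_EHT over E_Ctrl. Those of upd2 were 7.96 ± 0.39 in EP_EHT, 7.92 ± 0.17 in EP_LNT, 7.64 ± 0.23 in E_EHT, 7.16 ± 0.35 in EP_Ctrl and 7.03 ± 0.23 in E_Ctrl. Here too EP_LNT over EP_EHT (limma adjusted p = 0.941) and EP_Ctrl over E_Ctrl (0.797) did not pass, and the other neighbours were not compared.

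dome encodes the signalling receptor. Its levels were 10.39, 10.17, 10.33 and 10.39 in EP_Ctrl, 10.30, 10.38, 10.36 and 10.66 in EP_EHT and 10.09, 10.32, 10.34 and 10.26 in EP_LNT. With EGFR alone they were 10.68, 10.61 and 10.64 in E_EHT, against 10.43, 10.57, 10.43 and 10.31 in E_Ctrl. All 3 E_EHT arrays used lay above all E_Ctrl arrays, and among the EP_EHT arrays only replicate 4 reached the level of E_EHT. In EP_EHT over E_EHT the log2 fold change was -0.22 ± 0.09 (SE, limma adjusted p = 0.209). With E_EHT replicate 1 kept it was -0.10 and did not pass. Only without EP_EHT replicate 4, of all left-out arrays and alternatives, did it pass (-0.30, adjusted p = 0.0328). That array also had the lowest salivary glue mean of its group, 7.72 against 10.58 to 11.38, whose part was not tested.

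et (eye transformer) encodes a receptor relative known to dampen signalling. It stood at 7.32, 7.49, 7.56 and 7.21 in EP_Ctrl, 7.42, 7.30, 7.54 and 7.41 in EP_EHT and 7.75, 7.75, 7.80 and 7.48 in EP_LNT. With EGFR alone it ranged from 7.05 to 7.60 in E_EHT and from 7.08 to 7.49 in E_Ctrl. EP_LNT replicates 1 to 3 lay above every array of the other groups, and replicate 4 lay within them. In EP_LNT over EP_Ctrl the log2 fold change was 0.30 ± 0.12 (SE, limma adjusted p = 0.0897). Without EP_LNT replicate 4 it was 0.37 and passed (adjusted p = 0.041); the haemocyte mean was 9.50 to 9.56 on replicates 1 to 3 and 8.33 on replicate 4, and its part was not tested. The log2 fold change of dome minus that of et was -0.45 in EP_LNT over EP_EHT (exact permutation p = 0.0286, the smallest possible, and 0.114 after adjustment).

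Stat92E is the only STAT gene of the fly. Its levels were 11.50, 11.37, 11.49 and 11.55 in EP_Ctrl, 11.49, 11.42, 11.55 and 11.57 in EP_EHT and 11.38, 11.51, 11.53 and 11.53 in EP_LNT. The 3 E_EHT arrays, at 11.70, 11.66 and 11.62, lay above all other arrays, the E_Ctrl arrays among them (11.51, 11.48, 11.43 and 11.51). In EP_LNT over EP_Ctrl the 95% interval of its log2 fold change was -0.10 to 0.12. In E_EHT over E_Ctrl the log2 fold change was 0.18 ± 0.06 (SE, limma adjusted p = 0.0686) and in EP_EHT over E_EHT it was -0.16 ± 0.06 (adjusted p = 0.151). The first passed with dim genes removed (adjusted p = 0.0486), after a further quantile normalization (0.0461) and with a trended, robust variance (0.0439). With E_EHT replicate 1 kept it was 0.12 and did not pass.

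Ptp61F encodes a phosphatase that acts on Hopscotch and Stat92E. It ranged from 9.89 to 9.96 in EP_Ctrl, from 9.90 to 10.03 in EP_EHT and from 9.97 to 10.05 in EP_LNT. With EGFR alone it ranged from 9.97 to 10.12 in E_EHT and from 9.87 to 9.92 in E_Ctrl. The EP_LNT arrays lay above the EP_Ctrl arrays and the E_EHT arrays above the E_Ctrl arrays, by small amounts. The log2 fold changes were 0.09 ± 0.05 in EP_LNT over EP_Ctrl (SE, limma adjusted p = 0.205) and 0.15 ± 0.05 in E_EHT over E_Ctrl (adjusted p = 0.0704). The second passed after a further quantile normalization (0.19, adjusted p = 0.0328) and with dim genes removed (adjusted p = 0.0474). With E_EHT replicate 1 kept it was 0.06 and did not pass.

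**Figure D2:**
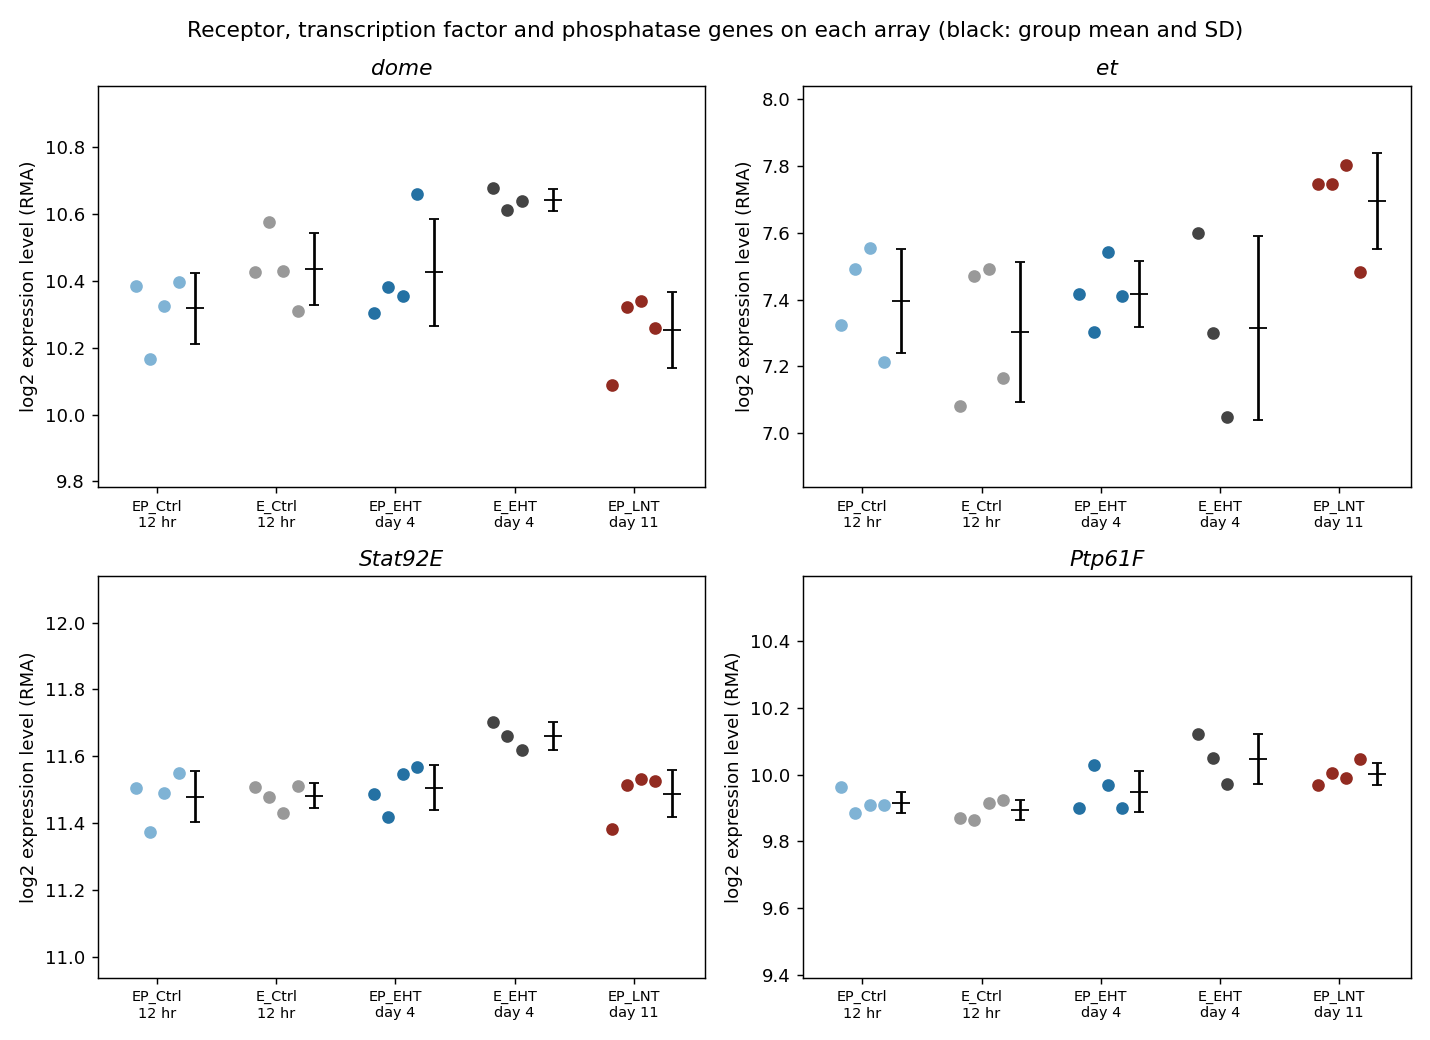
Log2 expression level (RMA, vertical axes, at least 1.2 units high) of dome, et, Stat92E and Ptp61F on each array, by group; points are arrays in replicate order and black bars are the group mean and SD. The 3 E_EHT arrays of Stat92E lie at 11.62 or above, and et lies at 7.75 or above on 3 of the 4 EP_LNT arrays.

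The ligand genes varied widely over the arrays, and Stat92E and Ptp61F hardly at all. Over the 19 arrays the SD was 0.39 for upd1 and 0.48 for upd2, larger than in 89.9% and 92.9% of the named genes. It was 0.22 for et, 0.16 for dome, 0.08 for Stat92E and 0.07 for Ptp61F. The SD of Stat92E was larger than in only 5.08% of the genes and that of Ptp61F than in 1.65%, with a median of 0.16 over all genes. The range of the 5 group means was 0.93 for upd2, 0.67 for upd1, 0.39 for dome and for et, 0.18 for Stat92E and 0.15 for Ptp61F, with a median of 0.26 over all genes.

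The members that passed were set beside the share of all genes that passed. In EP_EHT over EP_Ctrl, 2 of 6 were higher and 0 lower, where 4.72% of all genes were called, 2.95% higher and 1.78% lower. In EP_LNT over EP_EHT, 1 of 6 was lower and 0 higher, where 6.99% of all genes were called, 4.49% higher and 2.5% lower. Only upd2 of the 6 was higher in EP_LNT over EP_Ctrl and 0 were lower, where 22.1% of all genes were called, 12.1% higher and 10% lower, so that 1 member called is near the background. The median log2 fold change of the 6 members was 0.07, -0.03 and 0.05 in these comparisons, beside 0.0098, -0.0038 and 0.0087 over all genes.

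**Figure D3:**
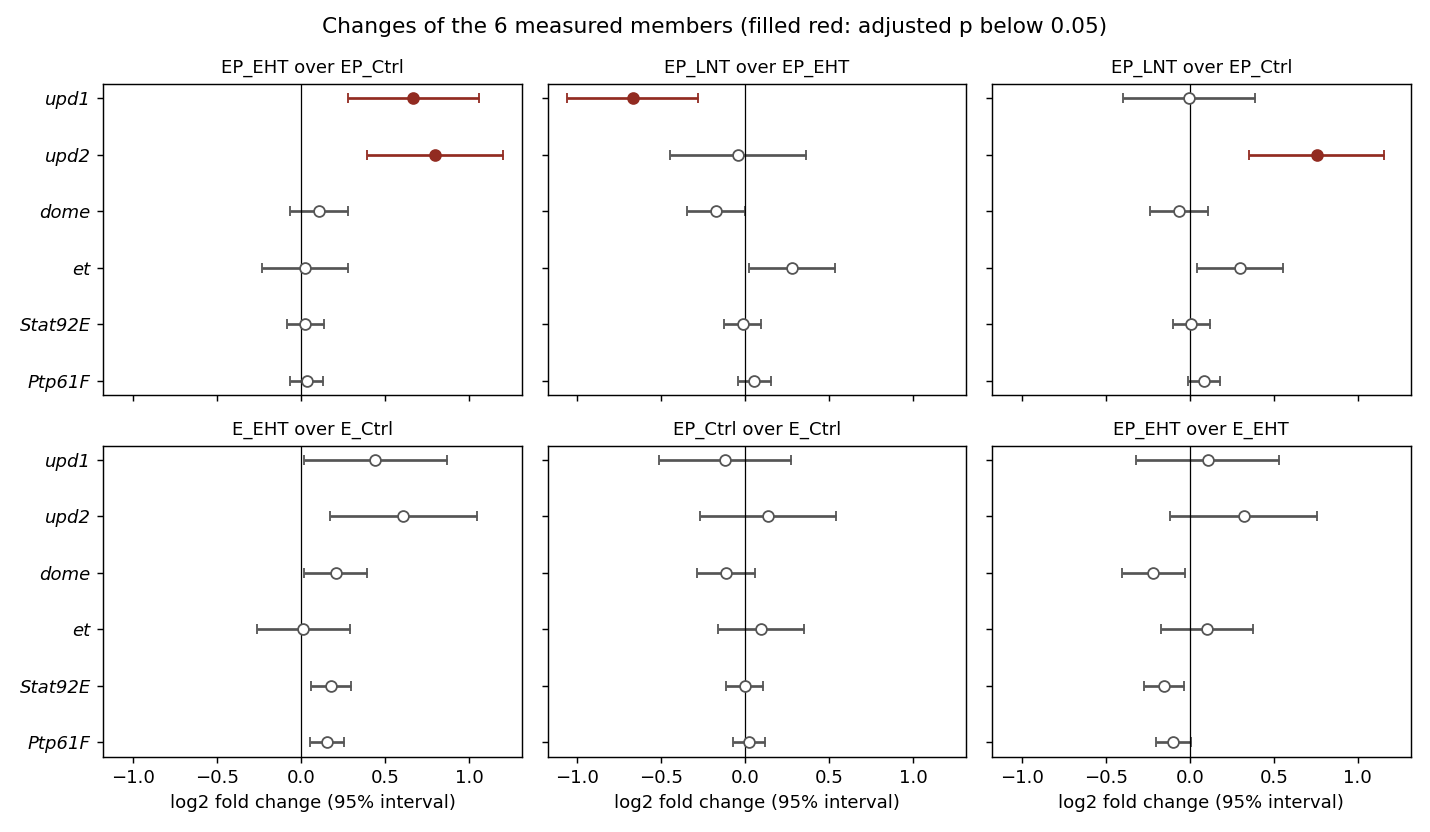
Log2 fold changes of the 6 measured members (horizontal axis) with 95% intervals from limma in 6 comparisons, as the first group over the second; filled red points have an adjusted p below 0.05. upd1 is filled in EP_EHT over EP_Ctrl and in EP_LNT over EP_EHT, upd2 in EP_EHT over EP_Ctrl and in EP_LNT over EP_Ctrl, and no other point is filled.

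With EGFR alone, 0 of 6 members passed limma's test in E_EHT over E_Ctrl, where 6.58% of all genes were called. All of the 6 but et had an unadjusted p below 0.05, each with a higher level in E_EHT, beside 9.61% of all genes on that side. upd2 had the largest log2 fold change, 0.61 ± 0.21 (SE, adjusted p = 0.0861), then upd1 with 0.44 ± 0.20 (0.197) and dome with 0.21 ± 0.09 (0.171). The arrays of E_EHT and E_Ctrl did not overlap for 4 of the 6, namely upd2, dome, Stat92E and Ptp61F, with E_EHT above. This held for 11.3% of all genes. Both counts left out E_EHT replicate 1. That array lay below every E_Ctrl array for dome, Stat92E and Ptp61F, and within the E_Ctrl range for upd2. All 6 members had their highest E_EHT level on replicate 2, whose haemocyte mean was 8.75, against 8.25 and 8.18 on replicates 3 and 4. In EP_EHT, the array with the highest upd1 and upd2 had the lowest haemocyte mean of its group. The part of haemocytes was not tested. Without E_EHT replicate 2 the log2 fold changes were 0.51 for upd2, 0.18 for upd1 and -0.13 for et. They were 0.19 for dome, 0.16 for Stat92E and 0.12 for Ptp61F, near the values with it.

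The knockdown itself was set against EGFR alone at each time. At 12 hr, in EP_Ctrl over E_Ctrl, 0 of 6 members passed limma's test (2.43% of all genes), 0 had an unadjusted p below 0.05 (15.6% of all genes), and the log2 fold changes lay between -0.12 and 0.13. At day 4, in EP_EHT over E_EHT, 0 of 6 passed limma's test (3.17% of all genes), with log2 fold changes from -0.22 to 0.32; dome and Stat92E had an unadjusted p below 0.05, both lower with psqRNAi, beside 7.41% of all genes on that side. For upd2 the 95% interval at day 4 was -0.12 to 0.76, and for upd1 it was -0.32 to 0.53.

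The change from 12 hr to day 4 was also compared between the genotypes. The difference, with psqRNAi minus without, was 0.23 ± 0.27 for upd1 and 0.19 ± 0.28 for upd2 (SE, limma adjusted p = 0.706 and 0.773), and it was -0.15 ± 0.08 for Stat92E (0.336). None of the 6 members and 0% of all genes passed; 2177 genes (16.2%) and 0 members had an unadjusted p below 0.05, and a trended, robust variance also called 0. The rise of both ligands at day 4 thus passed the test with psqRNAi and not without it, but the difference between the genotypes did not pass.

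A list of 12 other genes was set beside the members, of which 10 were measured. Not all of them are parts of the pathway itself, ImpL2 for example. upd3 and lwr are not analysed here. In EP_LNT over EP_Ctrl, 4 of 10 were higher, 0 lower and 6 did not pass, with a median log2 fold change of 0.04; 12.1% of all genes were called higher and 10% lower. The largest change was that of ken, a BCL6-like repressor of part of the STAT targets, whose levels were 9.51 to 9.64 in EP_Ctrl, 10.10 to 10.38 in EP_EHT and 10.18 to 10.37 in EP_LNT. Both tumor groups lay above every EP_Ctrl array. ken rose 1.66-fold in EP_LNT over EP_Ctrl (log2 fold change 0.73 ± 0.10, SE, limma adjusted p = 5.99e-05), 1.52-fold in EP_EHT over EP_Ctrl (adjusted p = 0.00249) and 1.37-fold in E_EHT over E_Ctrl (0.0199). The last call was lost without E_Ctrl replicate 2 (0.44, adjusted p = 0.0533), E_EHT replicate 2 (0.39, 0.0895) or E_EHT replicate 3 (0.44, 0.0786), and also with E_EHT replicate 1 kept (0.36, 0.0743) or only the groups compared (0.0785). The other 2 calls held without each array and under all 8 alternatives.

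Socs44A, of the suppressor of cytokine signalling family, rose 1.39-fold in EP_LNT over EP_Ctrl (log2 fold change 0.48 ± 0.06, SE, limma adjusted p = 2.21e-05) and 1.21-fold in EP_LNT over EP_EHT (0.28 ± 0.06, 0.00809). Its EP_LNT arrays lay at 9.53, 9.52, 9.50 and 9.28, all above the highest EP_EHT array at 9.24, and the second call was lost with only the groups compared (adjusted p = 0.12). The others that were higher in EP_LNT over EP_Ctrl were asrij (0.28, adjusted p = 0.0185), an endosomal protein gene of blood progenitors, and ImpL2 (0.33, 0.0385), whose product is known as an antagonist of insulin-like peptides. ImpL2 lost its call without EP_Ctrl replicate 1, 2 or 4 or EP_LNT replicate 2 or 3 (0.26 to 0.33), and asrij lost it without EP_Ctrl replicate 4 (0.24) or EP_LNT replicate 3 (0.21). Both lost it with only the groups compared (adjusted p = 0.0999 for ImpL2 and 0.0898 for asrij), and ImpL2 also with E_EHT replicate 1 kept (0.0527) or arrays centred on their medians (0.0526). In EP_LNT over EP_EHT, 3 genes of the list were higher and 0 lower (6.99% of all genes called). The counts were 1 and 0 in EP_EHT over EP_Ctrl (4.72%), and 1 and 1 in E_EHT over E_Ctrl (6.58%). The lower gene there was ImpL2 (log2 fold change -0.43 ± 0.12, SE, limma adjusted p = 0.0393). That call was lost in 6 of the 7 fits with 1 array left out and after a further quantile normalization (adjusted p = 0.061). Between the genotypes 0 of 10 passed at either time. Without EP_LNT replicate 4, 4 were higher and 2 lower in EP_LNT over EP_Ctrl.

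Of 16 genes known to respond to STAT in other settings, 10 were measured. Of these, 5 were higher, 1 was lower and 4 did not pass in EP_LNT over EP_Ctrl, with a median log2 fold change of 0.34; 22.1% of all genes passed in that comparison. The myoblast marker zfh1 is 1 of the 5. chinmo, a BTB-domain transcription factor gene of the undifferentiated disc, stood at 8.25, 7.95, 8.03 and 8.32 in EP_Ctrl, between 9.54 and 10.09 in EP_EHT and 10.31, 10.38, 10.32 and 9.61 in EP_LNT. Its tumor arrays lay far above the arrays of 12 hr, and it rose 4.05-fold in EP_LNT over EP_Ctrl (log2 fold change 2.02 ± 0.21, SE, limma adjusted p = 3.79e-06). In EP_LNT over EP_EHT its change was 0.23 ± 0.21 (adjusted p = 0.617).

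vir-1, a gene induced by viral infection, was 9.42 to 10.16 in EP_Ctrl, 9.84 to 10.15 in EP_EHT and 10.34 to 11.09 in EP_LNT, so that it stood apart at day 11. It rose 2.16-fold in EP_LNT over EP_Ctrl (limma adjusted p = 0.00014) and 1.87-fold in EP_LNT over EP_EHT (0.00296). On EP_LNT replicate 4, the array with the low haemocyte mean, vir-1 had its lowest level of the group, 10.34, against 11.00 to 11.09 on the other 3; the part of haemocytes was not tested. zfh2, a zinc-finger homeodomain gene of the wing hinge, fell by 1.18 ± 0.17 on the log2 scale in EP_LNT over EP_Ctrl (SE, adjusted p = 0.00011). It stood at 10.11, 10.40, 10.43 and 11.27 in EP_LNT, against 11.82, 11.53, 11.68 and 11.90 in EP_Ctrl, and again replicate 4 lay nearest to the earlier groups. Of the 8 wing disc markers, 2 were higher (12.1% of all genes), 5 lower (10% of all genes) and 1 did not pass in that comparison. Their part in the fall of zfh2 was not tested.

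apt, whose product limits STAT signalling in the egg chamber, rose 2.13-fold in EP_LNT over EP_Ctrl (log2 fold change 1.09 ± 0.20, SE, limma adjusted p = 0.00077). On EP_LNT replicate 4 apt stood at 8.46, against 9.31 to 9.56 on the other 3. The Turandot genes TotB, TotC and TotZ, secreted stress peptides known as STAT targets of the fat body, had mean levels of 3.28, 3.62 and 4.11, among the dimmest 25% of all genes (mean below 5.90), and did not pass in any comparison. The STAT-responsive list had 2 higher and 1 lower in EP_LNT over EP_EHT (6.99% of all genes called in either direction). It had 2 and 0 in EP_EHT over EP_Ctrl (4.72%), and 1 and 0 in E_EHT over E_Ctrl (6.58%). Between the genotypes 0 passed in EP_Ctrl over E_Ctrl (2.43%) and 0 in EP_EHT over E_EHT (3.17%). Without EP_LNT replicate 4 the count in EP_LNT over EP_Ctrl was 6 higher and 1 lower. The list, like the members, was chosen with results of these data known.

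**Figure D4:**
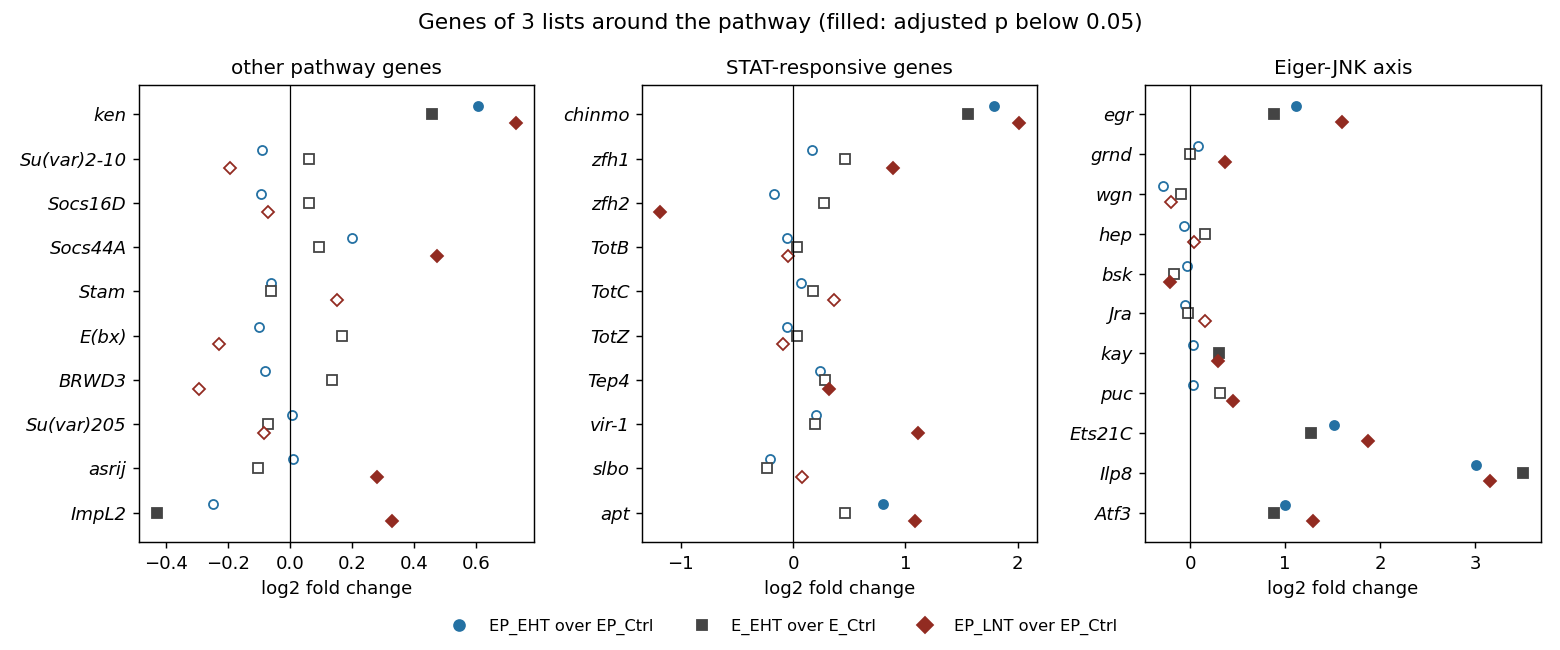
Log2 fold changes (horizontal axes, which differ in scale) of the measured genes of 3 lists in EP_EHT over EP_Ctrl, E_EHT over E_Ctrl and EP_LNT over EP_Ctrl; filled symbols have an adjusted p below 0.05. chinmo lies at 1.56 to 2.02 in all 3 comparisons, zfh2 at -1.18 in EP_LNT over EP_Ctrl, and ken at 0.46 to 0.73.

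The genes whose profile was most like those of the called members were sought among 1995 genes with an SD of at least 0.3, by Pearson correlation of the log2 levels over 19 arrays. Arrays share group, age and normalization, so the coefficients are descriptions. For upd2 the 3 closest were Ets21C, an ETS-family transcription factor gene (r = 0.90), Ilp8, a relaxin-like hormone gene (r = 0.88), and CG13692 (r = 0.88). Taken as deviations from group means, the coefficients with upd2 were 0.73, 0.67 and 0.70. For upd1 they were CG2145 (r = 0.88), CG8925 (r = 0.88) and CG34136 (r = 0.86), and 0.84, 0.73 and 0.80 as deviations from group means. upd1 and upd2 themselves had r = 0.49, and dome and Stat92E had 0.75, the highest of the 15 pairs of members.

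**Figure D5:**
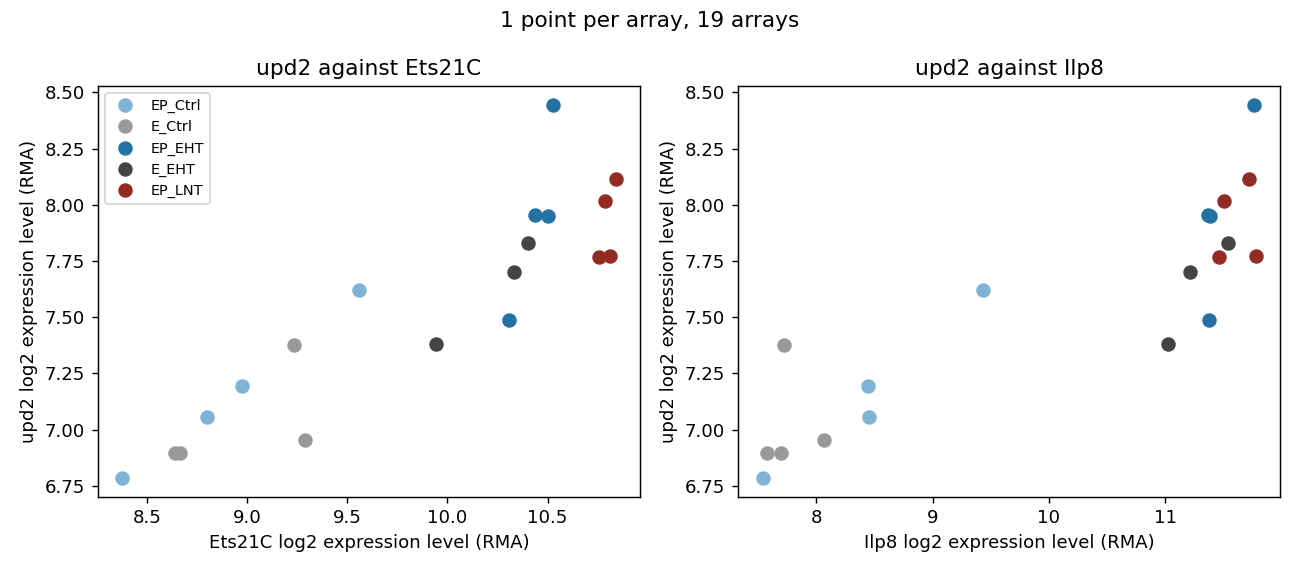
Log2 level of upd2 (vertical axis) against that of Ets21C and of Ilp8 (horizontal axes, RMA), 1 point per array, coloured by group. The arrays of 12 hr lie below the tumor arrays in Ets21C and in Ilp8, while in upd2 the arrays of 12 hr and of tumors overlap. Over 19 arrays, r = 0.90 for Ets21C and r = 0.88 for Ilp8.

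Ets21C and Ilp8 also belong to a list of 12 genes of the Eiger-JNK stress pathway, which is known to induce upd genes in damaged discs; 11 were measured. Of these, 7 were higher, 1 was lower and 3 did not pass in EP_LNT over EP_Ctrl, with a median log2 fold change of 0.37. Of all genes, 12.1% were called higher and 10% lower. The lower gene was bsk (log2 fold change -0.21 ± 0.05, SE, limma adjusted p = 0.00912). Ilp8 rose 8.9-fold (log2 fold change 3.15 ± 0.26, SE, limma adjusted p = 3.78e-07), Ets21C 3.66-fold (4.25e-06), egr, the TNF ligand gene, 3.02-fold (1.73e-05) and Atf3 2.45-fold (adjusted p = 0.00015). On EP_LNT replicate 4, egr stood at 9.44 and Atf3 at 9.90, against 10.46 to 10.55 and 10.85 to 11.04 on the other 3, and both lay below every EP_EHT array. These same 4 genes were the ones that passed in EP_EHT over EP_Ctrl, all higher, with Ilp8 8.06-fold (4.72% of all genes called).

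With EGFR alone, 5 of 11 genes of this list were higher and 0 lower in E_EHT over E_Ctrl (6.58% of all genes called). Ilp8 rose 11.3-fold (limma adjusted p = 5.62e-06), Ets21C 2.41-fold (0.00314), egr 1.84-fold (0.0206), Atf3 1.84-fold (0.0234) and kay, the Fos gene, 1.24-fold (0.0428). Of the 7 fits with 1 array left out, kay lost its call in 7, egr in 5 and Atf3 in 4. Without E_EHT replicate 2, egr, Atf3 and kay changed by 0.83, 0.78 and 0.28 (limma adjusted p of 0.0755, 0.0928 and 0.133). kay also lost its call under 3 of the 8 alternatives, among them E_EHT replicate 1 kept (0.17, limma adjusted p = 0.393). The rise to day 4 with psqRNAi minus that without it was -0.49 ± 0.39 for Ilp8 and 0.25 ± 0.29 for Ets21C (log2, SE, limma adjusted p = 0.535 and 0.695). Between the genotypes, 0 of 11 passed at 12 hr (2.43% of all genes called). In EP_EHT over E_EHT 1 was higher and 0 lower (3.17% of all genes called). The higher gene was bsk (0.32 ± 0.06, SE, limma adjusted p = 0.0063), a call lost with only the groups compared (0.163). In EP_LNT over EP_EHT, 2 of 11 were higher and 0 lower (6.99% of all genes called). Neither Ilp8 (0.14 ± 0.26, SE, limma adjusted p = 0.836) nor Ets21C (0.35 ± 0.20, 0.342) passed. The EP_LNT arrays of Ets21C (10.76 to 10.84) all lay above its EP_EHT arrays (10.31 to 10.53), while those of upd2 overlapped.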

How the data were processed

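The 20 arrays were grouped by their titles. Each array's deposited column holds a log2 level for every probe set; the submitters' processing notes list RMA and limma, with no version, and the background and summarisation settings are not given in the sources used here. RMA makes arrays nearly equal in distribution and compresses differences between dim probe sets. An array has no read depth; the number of arrays limits precision.

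Of 16322 probe sets, 13441 had 1 gene symbol, and the probe set with the highest mean represented each of 13402 genes. limma 3.58.1 in R 4.3.3 (lmFit, eBayes) fitted 1 mean per group over 19 arrays, without E_EHT replicate 1. P-values are two-sided, adjusted by Benjamini-Hochberg over all genes, with a threshold of 0.05. The fit was tested on simulated data. No replicate pair held over 2 equal values. Replicate numbers did not pair the arrays.

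Members and lists were chosen with earlier results of these data known. All measured members were described, with up to 4 called genes of each list with the largest changes and the 3 genes most like each called member; other values were chosen after being seen, as were the gene pair tests (exact permutation). Alternatives were E_EHT replicate 1 kept, 2 further normalizations, dim genes removed (lowest 25%), a trended robust variance, only the groups compared, all probe sets, the replicate block and each array left out; list counts without EP_LNT replicate 4 were added after seeing the data.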

Additional observations from a re-analysis of the deposited data

Results flagged for a closer look

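Among 24 groups of 4 arrays examined for the 6 members, 2 held an array far from the rest, and chance alone flags about 1 in 20 groups. upd2 stood at 7.38 on E_Ctrl replicate 3, against 6.89 to 6.95 on the other 3 E_Ctrl arrays, a gap of 0.876 of the group's range. Without that array, the log2 fold change of upd2 in E_EHT over E_Ctrl was 0.72 (limma adjusted p = 0.0508). Stat92E stood at 11.38 on EP_LNT replicate 1, against 11.51 to 11.53 on the other 3, a gap of 0.881 of the range. Without it, the log2 fold change of Stat92E in EP_LNT over EP_EHT was 0.018 (limma adjusted p = 0.918).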

How the results depend on the processing

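No member's called change turned round under any setting. Of 336 values of members under other settings, 324 stayed on their side of the threshold, 6 lost the call and 6 gained it. Of 366 with 1 array left out, 349 stayed, 15 lost it and 2 gained it. Most of these values were not called in the main fit, and only a called change can lose its call. With 1 of 8 arrays left out, upd1 lost the call of its rise in 6 fits and of its fall in 5. upd2 lost that of its rise to day 4 in 4 fits and of its rise to day 11 in 0. Under the 8 alternatives these losses were 3, 2, 1 and 0 in the same order. The number of members called moved as follows. With E_EHT replicate 1 kept it was 0 in EP_LNT over EP_EHT and 1 in EP_EHT over EP_Ctrl. With only the groups compared it was 0 in both. With arrays centred on their medians it was 1 in EP_EHT over EP_Ctrl. In E_EHT over E_Ctrl it was 2 after a further quantile normalization, 2 with dim genes removed and 1 with a trended, robust variance. With the replicate block it was 2 in EP_LNT over EP_Ctrl, where et passed (limma adjusted p = 0.0301); same-numbered arrays of different groups had a median correlation of deviations of -0.01, and only 5 of 19 arrays correlated best with their own number. Leaving out 1 array gave 0 to 1 members in EP_LNT over EP_EHT, 1 to 2 in EP_LNT over EP_Ctrl, 0 to 2 in EP_EHT over EP_Ctrl, 0 to 1 in EP_EHT over E_EHT and 0 in the other 3 comparisons. The cause was not tested; only the groups compared and left-out arrays use fewer arrays.

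The count of all genes called moved by over 1.5 times under these settings. It was 605 (E_EHT replicate 1 kept) and 252 (only the groups compared) beside 937 in EP_LNT over EP_EHT, 267 (only the groups compared) beside 633 in EP_EHT over EP_Ctrl, 206 (E_EHT replicate 1 kept) beside 325 in EP_Ctrl over E_Ctrl and 64 (only the groups compared) beside 425 in EP_EHT over E_EHT. The genotype difference had 1 with E_EHT replicate 1 kept, and 2 after a further quantile normalization and with only the groups compared, beside 0. With 1 array left out the ranges, some within 1.5 times, were 539 to 1510 in EP_LNT over EP_EHT, 2350 to 3363 in EP_LNT over EP_Ctrl, 307 to 833 in EP_EHT over EP_Ctrl, 273 to 965 in E_EHT over E_Ctrl, 153 to 512 in EP_Ctrl over E_Ctrl, 179 to 1134 in EP_EHT over E_EHT and 0 to 345 in the genotype difference, 345 being without EP_EHT replicate 4. Of 42 calls of genes of the 3 lists, 25 held under every setting and left-out array.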

Other observations

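On E_EHT replicate 1, the array that was set aside, upd1 stood at 8.03, dome at 10.16, Stat92E at 11.43 and Ptp61F at 9.68. These 4 levels were below the lowest level of the same gene on the E_Ctrl arrays, which was 8.23 for upd1, 10.31 for dome, 11.43 for Stat92E and 9.87 for Ptp61F. upd2 at 7.16 and et at 7.42 lay within the range of the E_Ctrl arrays.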
